A study of Mus musculus with 2 samples.

Results

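Leukaemia inhibitory factor (LIF) signalling was examined as 9 mouse genes: the ligand Lif, the receptor genes Lifr, Il6st and Osmr, the kinase genes Jak1, Jak2 and Tyk2, the transcription factor Stat3 and the feedback inhibitor Socs3. The genes were chosen by name for their place in the pathway, with earlier results of these data known. A peak was assigned to a gene where its summit, the base of strongest enrichment, lay in the RefSeq GRCm38 span of that gene, introns included. Of the 21192 peaks in the deposited list, 14 had their summit in 4 of the 9 genes.

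The list came from acRIP-seq, done on whole uteri that wild-type mice carried at gestational day 4. This assay enriches RNA pieces with N4-acetylcytidine (ac4C), a cytidine bearing an acetyl group, by means of an antibody against it, and sequences them together with the unselected input RNA. The 2 groups were 1 ac4C immunoprecipitation library and 1 input control library, both of polyA RNA. No treatment is named, and strain, age and number of animals are not given in the sources used here. With 1 library in each group no value has a replicate check, and no p-value was calculated. In whole-tissue RNA, fewer cells that express a gene and less RNA per cell cannot be told apart.

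LIF is a cytokine that the uterine glands of the mouse secrete shortly before implantation, and mice without it fail to implant embryos. It binds the LIF receptor, encoded by Lifr, which pairs with gp130, the shared signal-transducing chain of the IL-6 cytokine family, encoded by Il6st. Janus kinases bound to the receptor tails phosphorylate STAT3, which enters the nucleus and switches on target genes, among them Socs3, whose product shuts the receptor complex down again.

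The ends of the pathway are joined at Socs3, which STAT3 switches on. The 250 bases before its RefSeq start site are shown because the 2 Socs3 peaks lie just behind that start, and because this was the 1 start-site window of the 10 RefSeq windows of the 9 genes with a STAT motif. The capitals mark the motif TTCNNNGAA, which reads the same on both strands, so a match on one is a match on the other. The sequence is on the minus strand of GRCm38.p6, at chr11:117969367-117969616, and ends at the base before the start site. The RefSeq span of Socs3 reaches 970 bp upstream of this start site, so the printed bases and the motif lie inside the span.

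Socs3 upstream of the start site: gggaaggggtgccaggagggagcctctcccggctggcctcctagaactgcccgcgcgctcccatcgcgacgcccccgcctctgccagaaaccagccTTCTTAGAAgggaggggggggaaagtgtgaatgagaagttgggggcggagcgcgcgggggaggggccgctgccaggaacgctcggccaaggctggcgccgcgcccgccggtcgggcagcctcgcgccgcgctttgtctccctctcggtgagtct

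The motif lay 154 to 146 bp upstream of the start site. Among all 32851 RefSeq windows of 300 bp (250 bases before the start and 50 after it), 8.30% held the motif. That is close to the 10% of the 10 windows here, so the motif was not read as a trait of these genes. Of 10 windows of the genes listed below as targets of LIF or STAT3, 0 held it. Of 8 windows of adaptors to the MAPK branch, 2 did, both of the gene Gab1. In the other lists below it was held by 1 of 10 receptor windows, 1 of 8 inhibitor windows, 0 of 6 ligand windows and 0 of 9 kinase and STAT windows. The motif describes the letters of the window and no binding was measured. None of the 10 windows overlapped a peak of these genes, and the sequence under the peaks themselves was not used here.

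Peaks were present in some genes of a role and not in others. The ligand Lif held 0 peaks. Of the 3 receptor genes, Il6st held 4 peaks, while Lifr and Osmr, which encodes the oncostatin M receptor that also pairs with gp130, held 0. Of the 3 kinase genes, Tyk2 held 6 peaks and Jak1 and Jak2 held 0. Stat3 and Socs3 held 2 peaks each. The 4 genes with a peak made up 44.4% of the 9, against 30.6% of all 21900 protein-coding genes, and a difference of this size in 9 genes was not read as a result about the pathway. All 4 held at least 2 peaks, as did 3928 of the 6709 protein-coding genes with a peak (17.9% of all 21900). Tyk2 was among the 4.33% of all protein-coding genes with 6 or more.

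**Figure D1:**
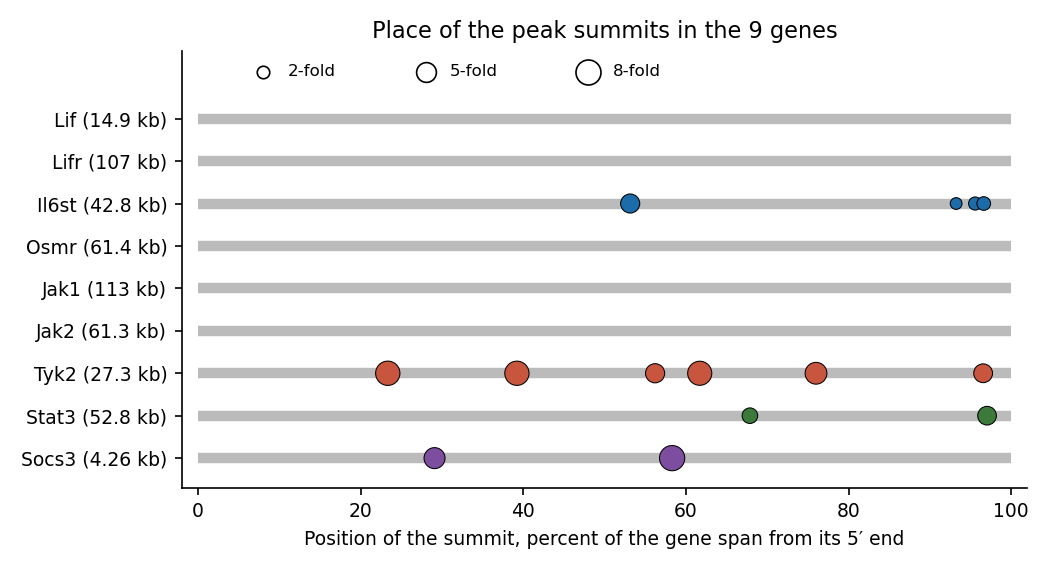
Position of the 14 peak summits in the 9 genes, in percent of the gene span from its 5′ end (horizontal axis), with 1 bar per gene, its span in kb beside the name, and the area of each circle in proportion to fold enrichment. Il6st, Tyk2, Stat3 and Socs3 hold summits, and 5 of the 14, in Il6st, Tyk2 and Stat3, lie past 90% of a span.

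Apart from Lif, the genes without a peak had longer spans than all those with one. The median span was 61.4 kb for the 5 genes without a peak and 35.1 kb for the 4 with one. The 5 genes without a peak spanned 14.9 kb (Lif), 61.3 kb (Jak2), 61.4 kb (Osmr), 107 kb (Lifr) and 113 kb (Jak1). Those with a peak spanned 4.26 kb (Socs3), 27.3 kb (Tyk2), 42.8 kb (Il6st) and 52.8 kb (Stat3). The 2 longest of the 9 genes, Jak1 and Lifr, thus held no peak, whereas Socs3, the shortest, held 2. Among all protein-coding genes the order was the other way, with a median span of 26.5 kb for the 6709 genes with a peak and 14.2 kb for the 15191 without.

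A missing peak was not read as missing ac4C. For a gene with no peak the list gives neither its fragments nor its background, and transcript levels were not used here. At the lowest background of the list, 0.317 fragments, the weakest peak still rested on 4 fragments, so a site with fewer was not detectable at this depth. The nearest peak lay 42.5 kb from the span of Lif (in Tbc1d10a), 90.3 kb from Jak1, 121 kb from Lifr (in Egflam), 130 kb from Osmr and 183 kb from Jak2. Within 1 Mb of these spans the list held 90 peaks around Lif, 22 around Jak2, 13 around Jak1, 11 around Lifr and 10 around Osmr. Lif thus stood without a peak in a stretch of chromosome 11 with many, and the oncostatin M gene Osm beside it also held 0.

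Fold enrichment in what follows is the value of the authors' peak caller at the summit: fragments of the immunoprecipitation plus 1, over the background plus 1. The number of fragments was recovered from the deposited fold and p-value of each peak. Each interval is the exact 95% Poisson interval of that number, with the background taken as known, so it covers counting error of the immunoprecipitation only, and PCR copies were not told from separate molecules. Over the 14 peaks the median fold enrichment was 4.69 (range 1.77 to 8.15), against 5.56 over the 19883 peaks in protein-coding genes, and 6 of the 14 lay above that value. Their median number of fragments was 24 (range 8 to 67), against 22, and their median width 287.5 bp (range 200 to 1692 bp), against 315 bp. None of the 14 summits lay in a second gene of the table.

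**Figure D2:**
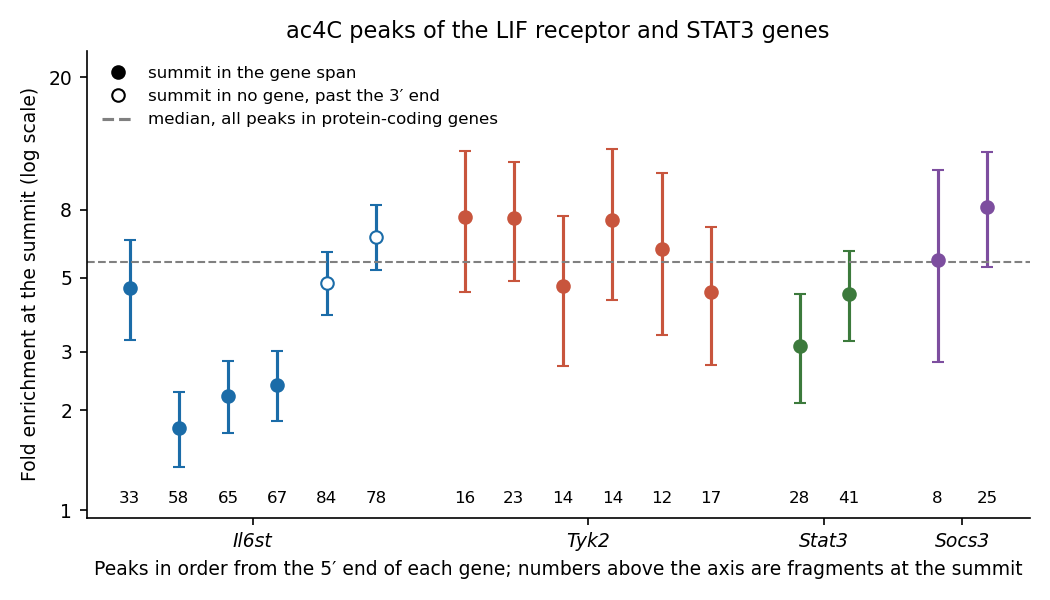
Fold enrichment at the summit (vertical axis, log scale) of the 14 peaks in Il6st, Tyk2, Stat3 and Socs3 and of 2 peaks past the 3′ end of Il6st, in order from the 5′ end of each gene. Points are the deposited values, bars their 95% Poisson intervals, and numbers at the bottom the fragments at the summit. The 3 lowest points, between 1.77 and 2.38, belong to Il6st, and the highest, 8.15, to Socs3.

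Il6st encodes gp130, the signalling chain that LIF shares with IL-6, IL-11 and oncostatin M (NCBI gene 16195; chromosome 13, 112464070 to 112506860, plus strand). It was the 1 receptor gene of the 3 with peaks, and those peaks were weak in fold but deep in fragments. The first, from 112486655 to 112486937, lay 22.7 kb behind the start site, near the middle of the span. It stood at 4.67-fold (95% interval 3.26 to 6.50) on 33 fragments over a background of 6.29. Whether that summit lies in an exon was not determined, since exon positions were not used here.

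The other 3 Il6st peaks stood close together near the 3′ end, 2.89, 1.89 and 1.44 kb before the end of the span. From 112503650 to 112504025 the fold enrichment was 1.77 (1.35 to 2.28) on 58 fragments over a background of 32.4. From 112504838 to 112505129 it was 2.21 (1.71 to 2.81) on 65 fragments over 28.9. From 112505290 to 112505611 it was 2.38 (1.85 to 3.01) on 67 fragments over 27.6. These are among the lowest folds in the whole list: 7 of the 21192 peaks lay below the first, and 1.02% lay below the last. Their intervals overlapped one another and lay below that of the peak in the middle of the gene. With the background given a counting error as well, 1 of the 3 stayed below it.

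Fold enrichment fell with background across the list, so these peaks were also set beside peaks of like background. Among 143 peaks whose background reached 32 fragments or more, the median fold was 2.87, and 6 lay below the Il6st peak at 1.77. The 672 peaks with a background of 16 to 32 fragments had a median of 3.35, and 7.74% and 14.0% of them lay below the Il6st peaks at 2.21 and 2.38. The 3 peaks were thus low within their own classes too. The peak in the middle of the gene, at 4.67, lay close to the median of its class, 4.84.

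**Figure D3:**
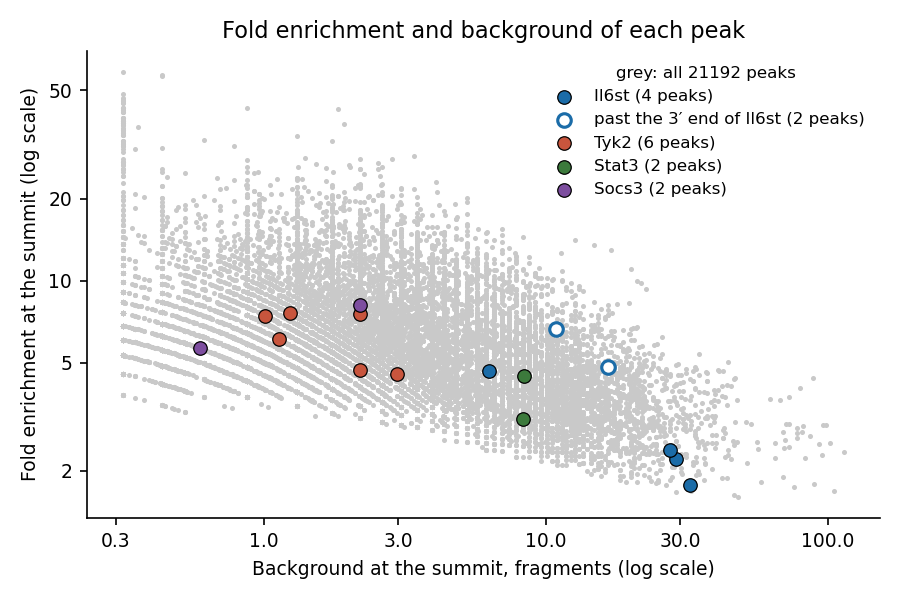
Fold enrichment (vertical axis, log scale) against background at the summit in fragments (horizontal axis, log scale) for all 21192 peaks in grey and for the peaks of Il6st, Tyk2, Stat3 and Socs3 in colour. The 3 peaks near the 3′ end of Il6st lie at backgrounds of 27.6 to 32.4 along the lower edge of the cloud, and the 6 Tyk2 peaks lie at backgrounds of 1.02 to 2.98.

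Beyond the annotated end of Il6st were 2 peaks of higher fold than the 3 just before it, in no gene of the table. They fall outside the rule and are not among the 14, and were singled out after their values were seen. The nearer, on chromosome 13 from 112507535 to 112508129, had its summit 1027 bp past the end of the span and stood at 4.82-fold (3.86 to 5.95) on 84 fragments over a background of 16.6. The farther, from 112508928 to 112509185, had its summit 2141 bp past the end and stood at 6.64-fold (5.27 to 8.27) on 78 fragments over 10.9. Both intervals lay above those of the 3 peaks just before the end of the gene, also with the background given a counting error (3.34 to 6.96 and 4.36 to 10.1). Both overlapped the interval of the peak in the middle of the gene, at 4.67-fold (3.26 to 6.50). They were high for their background as well, with 85.9% and 90.7% of the peaks of their classes below them. The span of the next gene, Il31ra, lay 12.9 kb beyond the farther summit. Il31ra lies on the minus strand, so that its 3′ end faces these peaks. The list gives no strand, and which transcript the fragments came from was not tested.

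Tyk2 encodes a Janus kinase that binds gp130 and other cytokine receptor chains (NCBI gene 54721; chromosome 9, 21104068 to 21131393, minus strand). Its 6 peaks were spread along the gene, from 6.26 to 26.3 kb behind the start site, at backgrounds of 1.02 to 2.98 fragments. From the 5′ end, the first peak (21124949 to 21125165) stood at 7.58-fold (4.52 to 12.0) on 16 fragments, and the second (21120524 to 21120806) at 7.53-fold (4.89 to 11.1) on 23 fragments. The third (21115393 to 21116231), at 839 bp the widest of the gene, stood at 4.70-fold (2.71 to 7.68) on 14 fragments.

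The fourth Tyk2 peak (21114407 to 21114799) stood at 7.44-fold (4.29 to 12.2) on 14 fragments and the fifth (21110511 to 21110710) at 6.08-fold (3.37 to 10.3) on 12. The last peak (21104922 to 21105124), 0.941 kb before the 3′ end of the span, stood at 4.53-fold (2.74 to 7.10) on 17 fragments. The 6 intervals all overlapped one another, and differences between Tyk2 peaks were not tested. Tyk2 summits held 12 to 23 fragments, and Il6st summits 33 to 67.

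Stat3 encodes the transcription factor that carries the LIF signal to the nucleus (NCBI gene 20848; chromosome 11, 100886806 to 100939594, minus strand). It held 1 peak inside the gene and 1 near the 3′ end. The first, from 100903467 to 100903854, lay 35.8 kb behind the start site and stood at 3.11-fold (2.10 to 4.45) on 28 fragments over a background of 8.32. The second, from 100888280 to 100888498, lay 1.56 kb before the end of the span and stood at 4.47-fold (3.23 to 6.02) on 41 fragments over 8.40. The intervals of the 2 peaks overlapped. Against the 2155 peaks with a background of 8 to 16 fragments, whose median was 3.92, 1 Stat3 peak lay below and 1 above. A further peak 2900 bp past the 3′ end of Stat3 belonged to the neighbouring gene Stat5a, at 3.91-fold (2.46 to 5.93) on 20 fragments.

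Socs3 encodes a protein that binds gp130 and the kinases on it and ends the signal (NCBI gene 12702; chromosome 11, 117966079 to 117970336, minus strand). Its 2 peaks covered 1892 bp of a span of 4.26 kb. The peak nearer the start, from 117968964 to 117969163, ended 203 bp behind the start site shown above, with its summit 268 bp behind it. The RefSeq span reaches 970 bp farther upstream than that start site. The peak nearer the start stood at 5.64-fold (2.79 to 10.5) on 8 fragments over a background of 0.595, the thinnest of the 14. The other, from 117966973 to 117968664, was 1692 bp wide, with its summit 1.51 kb behind the start. It stood at 8.15-fold (5.39 to 11.9) on 25 fragments over 2.19, the highest fold of the 14. The 2 intervals overlapped.

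By the highest peak of each gene the order was Socs3 at 8.15, Tyk2 at 7.58, Il6st at 4.67 and Stat3 at 4.47. The intervals of these 4 peaks all overlapped, but overlap of separate intervals is not a test of a difference, and none was run. The peaks stood at unlike backgrounds, 2.19, 1.24, 6.29 and 8.40 fragments in the same order. Each is also the highest of an unlike number of peaks, 2, 6, 4 and 2. Among the 6709 protein-coding genes with a peak, 68.1% had a lower highest fold than Socs3, 62.1% than Tyk2, 18.4% than Il6st and 16.2% than Stat3. Over all 91 pairs of the 14 peaks, 27 had intervals that did not overlap, and 14 with the background given a counting error. Between Il6st and Tyk2, 14 of 24 pairs were apart, in each of which the Il6st peak was 1 of the 3 near the 3′ end, and 9 of 24 with that error. Between Tyk2 and Socs3, 0 of 12 pairs were apart. The share of such pairs over the whole list was not calculated. The 3 Il6st peaks near the 3′ end stood at backgrounds of 27.6 to 32.4 fragments, and the Tyk2 peaks at 1.02 to 2.98. Fold enrichment fell with background across the list, so these counts were not read as a difference between the genes.

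Stricter filters left fewer sites, and the genes left depended on the filter. With a −log10 q of at least 10, a level that 17.5% of protein-coding genes reached with some peak, 5 of the 14 peaks were left, in all 4 genes: 1 in Il6st, 2 in Tyk2, 1 in Stat3 and 1 in Socs3. The left Il6st peak was that in the middle of the gene, and the left Stat3 peak that near the 3′ end. With a fold that reached the median of the list, 5.58, 6 peaks in 2 of the 4 genes were left, Tyk2 and Socs3, and Il6st and Stat3 held 0. The share of all protein-coding genes left by this filter was not calculated, but the median highest fold of those with a peak was 6.61. Fold fell with background across the list, and backgrounds were 6.29 to 32.4 fragments in Il6st and 8.32 to 8.40 in Stat3. This split was therefore not read as a trait of the genes. In place along the span, 5 of the 14 summits (35.7%) lay in the last 10% of the span and 0 in the first 10%. Over all 19475 summits in exactly 1 protein-coding gene, 36.0% lay in the first or last 10%. With both ends pooled, the share of the 14 was thus close to that of all summits. The share of all summits in the last 10% alone was not calculated, because strand was known for 79.9% of protein-coding genes. Whether the lean of the 14 to the 3′ end is unusual was therefore not determined.

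The rest of the pathway was described by 6 lists with 51 other genes, of which 38 held a peak (74.5%, against 30.6% of all protein-coding genes). The lists, too, were chosen with earlier results of these data known, so their shares are not blind comparisons. Transcript abundance was not used here, so these shares do not separate ac4C from how strongly a gene is transcribed. Of 8 other ligands of the gp130 family, 1 held a peak. This was Clcf1, a cardiotrophin-like cytokine, with 6 peaks and a highest fold of 15.6 (10.8 to 21.9). Il6, Il11, Osm, Ctf1, Ctf2, Cntf and Il27 held 0. With Lif counted in, 1 of 9 ligand genes held a peak.

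Of 5 other receptor genes, 3 held a peak: Il31ra at 6.91 (4.24 to 10.7), the IL-6 receptor gene Il6ra at 5.09 (2.88 to 8.44) and the IL-11 receptor gene Il11ra1 at 4.18 (2.50 to 6.64). Cntfr and Il27ra held 0. Among the other kinase and STAT genes 6 of 7 held a peak. Jak3, a Janus kinase best known from lymphocytes, held 11 peaks with a highest fold of 10.7 (7.03 to 15.8). Beside Stat3 on chromosome 11, Stat5a held 4 peaks up to 9.63 (5.33 to 16.3) and Stat5b 2 peaks up to 8.65 (5.38 to 13.3). Stat4 held 0. The Janus kinases thus fell into Jak3 and Tyk2, with 11 and 6 peaks, and Jak1 and Jak2, with 0.

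Of 14 other inhibitor genes, 11 held a peak. Socs1, which blocks Janus kinases directly, reached 19.7-fold (13.0 to 28.8) on 25 fragments at the lowest background of the list, and Socs7 13.9-fold (8.82 to 20.9). With the background taken as known, the interval of Socs1 lay above that of the highest Socs3 peak. Their backgrounds were unlike, at 0.317 fragments for Socs1 and 2.19 for that Socs3 peak. These peaks were not compared at like background or with a counting error of the background, so no difference between the genes was read from them. Ptpn1, a phosphatase that removes phosphate from Janus kinases, stood at 7.32 (4.22 to 11.9), and Socs2 at 7.50 (4.54 to 11.8). Socs4, Socs6 and Ptpn2 held 0. All 5 adaptor genes of the MAPK branch of the pathway held a peak, with the highest fold in Gab1, at 10.8 on 23 fragments.

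All 12 genes listed as transcriptional targets of LIF or STAT3 held a peak, with a median highest fold of 11.3, against 6.61 over all protein-coding genes with a peak. Cebpb, a transcription factor needed for decidualization, reached 36.8-fold (27.4 to 48.4) on 49 fragments, above 99.9% of genes with a peak. Egr1 stood at 16.8 (12.7 to 21.9) and Junb at 16.8 (13.3 to 20.9), both immediate early transcription factors. Msx1, a homeobox gene of the receptive uterus, stood at 13.6 (10.7 to 17.0). With the background taken as known, the intervals of all 4 lay above those of the Il6st and Stat3 peaks. Their backgrounds were lower, however, at 0.359 (Cebpb), 2.21 (Egr1), 3.59 (Junb) and 4.38 (Msx1) fragments. Those of the Il6st peaks were 6.29 to 32.4 and those of the Stat3 peaks 8.32 to 8.40. Fold enrichment fell with background across the list, and these genes were not compared at like background. The lowest of the 12 was Mcl1, a survival factor of the BCL2 family, at 3.55 (2.28 to 5.29).

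**Figure D4:**
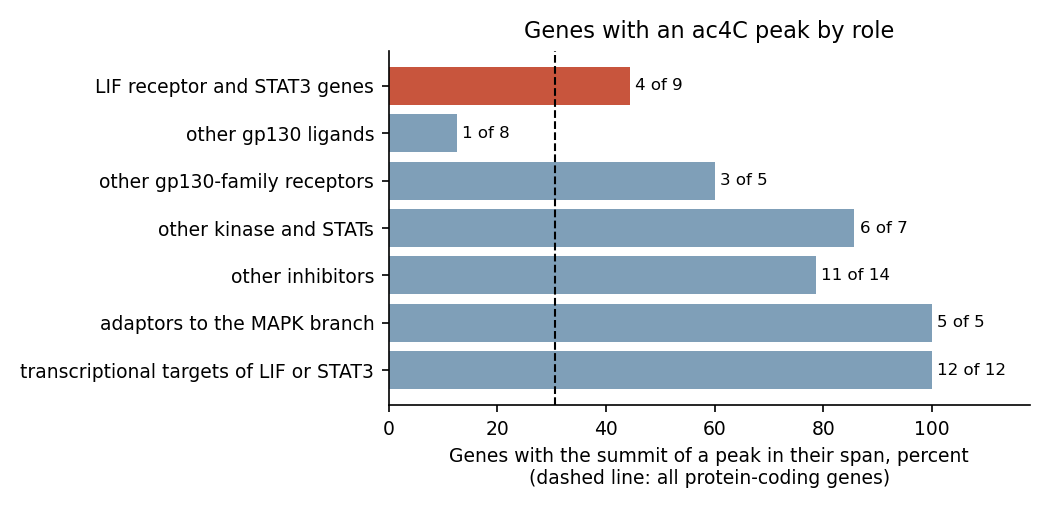
Share of genes with the summit of a peak in their span (horizontal axis, percent) for the 9 LIF receptor and STAT3 genes and 6 lists of other pathway genes, with the number of genes beside each bar and the share of all protein-coding genes, 30.6%, as a dashed line. The other ligands stand lowest, with 1 of 8, and the adaptors and transcriptional targets highest, with 5 of 5 and 12 of 12.

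The tissue label was set beside 24 marker genes, of which 17 held a peak (70.8%, against 30.6% of all protein-coding genes). Peaks were present in Pgr, Esr1, Hoxa10 and Hoxa11 of the uterus, in the gland gene Foxa2, in 3 of 3 stromal, 3 of 3 smooth muscle and 2 of 2 endothelial genes and in 3 of 4 epithelial genes, with Epcam at 0. The leukocyte gene Ptprc, the haemoglobin gene Hbb-bs, the oviduct gene Ovgp1 and the embryo genes Cdx2, Pou5f1 and Nanog held 0, and the ovarian gene Amh held 1 on 6 fragments. Peaks measure enrichment and not abundance, so these counts do not give the cell makeup of the tissue.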

How the data were processed

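The deposited list gives, for each peak, position, summit, score, fold enrichment, −log10 p and −log10 q. Per the submitters' processing notes, HISAT2 2.2.1, MACS3 3.0.0a7 and build mm10 (GRCm38) were used, with settings not given in the sources used here. The fold enrichment is a ratio of immunoprecipitation to background by the authors' peak caller. The deposited −log10 p-value and −log10 q-value are its significance, with the largest q at 0.0499. The deposited score equals 10 times the −log10 q without decimals in 21191 of 21192 peaks. Strand is not given.

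With Python 3.11.15, pandas 2.3.3 and scipy 1.17.1, fragments at each summit were recovered as the whole number that gives both the deposited fold, with a pseudocount of 1, and the Poisson p. A number was found for 21192 peaks (relative tolerance 1e-05) and a second for 0. The largest relative miss of a match was 8.58e-06, and the smallest miss of a next best number 1.61e-05. On simulated data 1975 of 1975 were right. With the p-values swapped among those simulated peaks, 7 still matched a number. Read totals were not used here, so depth is given as fragments per peak. Summits were set against spans of a RefSeq table of GRCm38.p6 (49997 genes), which held all 9 genes. RefSeq start-site windows, with strand, matched all 9. No comparison could be tested with 1 library a group.

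The members and lists were chosen with earlier results of these data known. A single gene of the ligand list is not reported here and was left out of its counts. Of each list, up to 4 genes with the highest fold and genes without a peak are named, and Mcl1, the lowest of its list, was named after its value was seen. Alternatives tried were filters on q, fold and width, other rules of overlap and span, the median in place of the highest peak, and a counting error of the background.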

Additional observations from a re-analysis of the deposited data

How the results depend on the processing

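Depth limits what the peaks can show: the 14 rest on 8 to 67 fragments each. The number of peaks in the 9 genes, 14, was 5 where −log10 q had to reach 10 and 6 where the fold had to reach the median of all peaks, both by construction. The fold filter left 2 of the 4 genes, Tyk2 and Socs3, and raised the median over the peaks from 4.69 to 7.48, and the q filter raised it to 7.53. For Il6st the value at the highest peak, 4.67, became 2.29 with the median over its peaks, by construction, and 6.64 with the span widened by 5 kb, which took in the peaks past its 3′ end. That widening was chosen after the data were seen. Any overlap and a span widened by 1 kb changed none of the 8 values, and summits in exactly 1 gene of any kind changed the other pathway genes alone, to 37. With peaks at most 1 kb wide, the highest fold of Socs3 was 5.64 and its wide peak was lost. The other pathway genes with a peak numbered 28 with the q filter, 30 with the fold filter and 33 with the width filter, against 38. Among the genes lost to the width filter were Cebpb, Junb and Socs1, whose only peaks were wider than 1 kb. With a background counting error, taking 1 background step of 0.438 as 1 input fragment, the interval of Socs3 widened to 4.01 to 16.6 and that of Il6st to 2.68 to 8.13. The meaning of such a step was not established. No paired analysis was possible because each group holds 1 library.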
